A study of Homo sapiens with 6 samples.

Results

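The distal long arm of chromosome 10 carries 158 genes that were detected in every RNA-seq sample of WT and ARID1A-KO AID-DIvA cells and that, as a group, stood higher in the knockout. Members were taken by position, with a gene start from 100000000 to 125000000 on chromosome 10 of GRCh37, and by a minimum of 10 reverse-stranded reads in each of the 6 samples. The tables list 57820 genes, of which 415 start in this region. Of these 415 genes, 257 were not members, and 122 of those had no reverse-stranded read in any sample. The region itself was chosen from the ARID1A-KO to WT difference of its genes in these samples, so the differences between genotypes given for members describe the choice and are not tests of it.

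The samples were 3 WT and 3 ARID1A-KO samples, labelled replicates 3, 4 and 5 in each genotype. Both genotypes were AID-DIvA cells, an osteosarcoma line that carries an inducible AsiSI restriction enzyme fused to an auxin-inducible degron, and all cells were untreated, so the enzyme was not induced. ARID1A is a DNA-binding subunit of the SWI/SNF (BAF) chromatin remodeler. The knockout was made with Cas9 and guide RNAs to the first exon of ARID1A, and knockout clones were established. Which clone gave the RNA is not stated in the sources used here, so the knockout and the history of a clone cannot be told apart. The study describes its replicates as independent experiments, while the labels do not say whether they were separate cultures, and p-values measure the spread between these samples. Because these are bulk samples, more RNA per cell and more cells of one kind cannot be told apart.

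Neighboring genes on a chromosome can share regulatory elements, chromatin state and gene dosage, while each promoter also responds to its own transcription factors. Genes that share a start region in opposite directions often use a single bidirectional promoter. The distal long arm of chromosome 10 holds genes of many pathways, among them the NF-kB subunit NFKB2, the fibroblast growth factor receptor FGFR2, the spindle checkpoint protein BUB3 and several homeobox transcription factors.

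Samples held between 54512105 and 84088708 reverse-stranded counts, which leaves little counting error except in the lowest members. ARID1A levels in CPM, read counts scaled to the size of the library, were 166, 178 and 177 in WT and 25.1, 27.5 and 25.2 in ARID1A-KO (log2 fold change -2.74, SE 0.07, adjusted p = 9.66e-08 by the quasi-likelihood test of edgeR, Benjamini-Hochberg over 19599 genes). Of 8 osteosarcoma or mesenchymal markers, 5 exceeded 1 TPM (a level scaled for gene length and library size) in every sample, and COL1A2, SP7 and TWIST1 were near 0. Its summed TPM was 2142 to 2358 in WT and 3033 to 3343 in ARID1A-KO, which followed VIM (1556 and 2779 TPM by group means), while SPARC (515 and 277 TPM), COL1A1 (149 and 108 TPM) and ALPL (10.5 and 1.92 TPM) were called lower and RUNX2 was not called. The summed TPM of 5 epithelial markers was 643 to 737 in WT and 438 to 490 in ARID1A-KO, with 3 of them above 1 TPM in every sample. KRT8, KRT18 and CDH1 were called lower, whereas EPCAM was called higher (6.72 and 9.08 TPM) and ESRP1 was not called. None of 5 leukocyte and 3 endothelial markers exceeded 1 TPM in every sample, and their summed levels were at most 1.06 TPM. The part of these marker differences in the values of the members was not tested.

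The members formed a larger share of the transcriptome in every ARID1A-KO sample than among the WT samples. They took 0.539%, 0.541% and 0.528% of all counts in WT and 0.728%, 0.729% and 0.727% in ARID1A-KO. Their summed level was 5450 CPM ± 57.6 in WT and 7164 CPM ± 195 in ARID1A-KO (SD, n = 3), a ratio of 1.31. For each sample, the median over members of log2 CPM minus the mean of WT was 0.00072, 0.022 and -0.012 in WT and 0.40, 0.38 and 0.42 in ARID1A-KO. Over all genes tested the same median lay between 0.0005 and 0.013 in all 6 samples.

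The log2 fold change of ARID1A-KO over WT had a median of 0.41 over the 158 members, with quartiles of 0.069 and 0.61. The median over the 19599 genes tested was 0.0066. A gene is called higher or lower here when its adjusted p is under 0.05 by edgeR. Among members, 89 were called higher (56.3%), 13 were called lower (8.23%) and 56 were not called. Of all genes tested, 36.2% were called, 17.8% higher and 18.4% lower. Among the 17480 tested genes with the same minimum of 10 reads, 17.9% were called higher and 18.4% lower. In CPM, 95 members had all ARID1A-KO samples above all WT samples (60.1%) and 20 had all below (12.7%), against 24.8% and 24.8% of all genes tested. Since the region was picked for this contrast, nothing further is read from these counts. The plot of fold changes along the region shows the bulk of the members in a band above 0 and single genes far outside it.

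**Figure D1:**
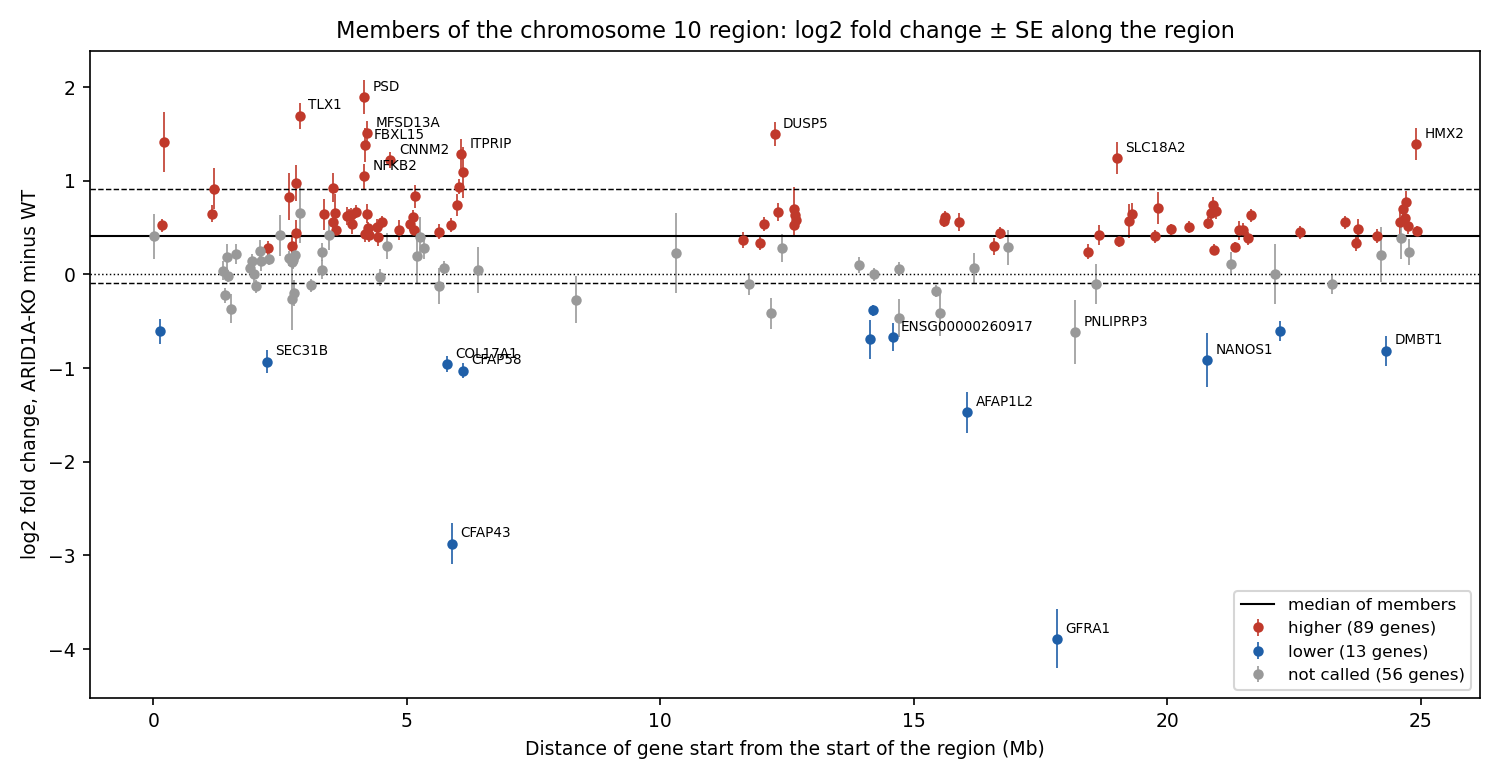
Each point is 1 of the 158 members, with the distance of its start from the start of the region in Mb on the x axis and its log2 fold change (ARID1A-KO minus WT) on the y axis; bars are the SE of the edgeR fit from 3 samples per genotype. Red, blue and grey mark the 89 genes called higher, 13 called lower and 56 not called, the solid line is the median of 0.41, and dashed lines lie 0.5 above and below it. Names mark the 10 largest departures in each direction among members with a mean CPM over 1.

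Low members spread more widely around the regional median than abundant ones. Across members, Spearman's rho between log2 fold change and mean TPM was 0.13 (n = 158 genes, which share the same libraries). In the lowest, middle and highest ranks by mean TPM, holding 53, 52 and 53 members, the median log2 fold changes were 0.28, 0.42 and 0.45. The interquartile range was 0.93 in the lowest ranks, up to 5.96 TPM, and 0.40 in the highest ranks, above 29.2 TPM. By type, 137 members were protein coding, with a median log2 fold change of 0.41, and 16 were long noncoding RNAs, with a median of 0.43.

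The 5 members with the highest TPM were NPM3, EIF3A, ATP5MK, BUB3 and NOLC1, and all 5 were called higher, with log2 fold changes from 0.46 for BUB3 to 0.93 for NPM3. EIF3A, the largest subunit of translation initiation factor eIF3, stood at 413, 410 and 401 CPM in WT and 624, 604 and 563 CPM in ARID1A-KO (log2 fold change 0.55, SE 0.06). BUB3, a spindle checkpoint protein, stood at 170, 172 and 171 CPM in WT and 236, 232 and 238 CPM in ARID1A-KO (log2 fold change 0.46, SE 0.05). ATP5MK, a small subunit of the mitochondrial ATP synthase, was at 225 TPM ± 6.51 in WT and 312 TPM ± 11.5 in ARID1A-KO (SD, n = 3). For these genes the samples of each genotype lay close together and the genotypes did not overlap. NPM3, a nucleolar chaperone, was at 190 TPM ± 35.3 in WT and 359 TPM ± 53.2 in ARID1A-KO, and NOLC1, a nucleolar phosphoprotein, at 140 TPM ± 11.8 and 201 TPM ± 17.6 (SD, n = 3). The members nearest to the regional median were LOXL4, PLEKHA1 and RAB11FIP2, each at a log2 fold change of 0.41. PLEKHA1, a phosphoinositide-binding adaptor, had 31.5, 29.7 and 27.4 CPM in WT and 40.4, 37.7 and 39.4 CPM in ARID1A-KO. RAB11FIP2, an effector of the recycling GTPase RAB11, had 24.8, 24.6 and 22.7 CPM in WT and 31.9, 30.8 and 32.8 CPM in ARID1A-KO. LOXL4, a lysyl oxidase of the extracellular matrix, had 36.8, 22.7 and 31.2 CPM in WT and 30.7, 32.7 and 56.6 CPM in ARID1A-KO, so its genotypes overlapped and it was not called. Its place near the median depended on single samples, since its log2 fold change was 0.070 without ARID1A-KO replicate 5, 0.24 without WT replicate 4 and 0.57 without ARID1A-KO replicate 3.

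The difference was not even along the region. In windows of 2.5 Mb, the median log2 fold change was 0.15 over the first 22 members, 0.50 over the next 42 and 0.45 over the following 19. After a window with 1 member (SORCS1, -0.27) and one with a median of 0.34 over 9 members, it dropped to 0.057 over the 11 members between 112.5 and 115 Mb. It then stood at 0.29, 0.41, 0.47 and 0.46 in the last 4 windows. Of the 9 windows with at least 5 members, 8 had all ARID1A-KO samples above all WT samples in median level. Window medians per sample lay between -0.078 and 0.11 in WT and between 0.033 and 0.52 in ARID1A-KO.

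**Figure D2:**
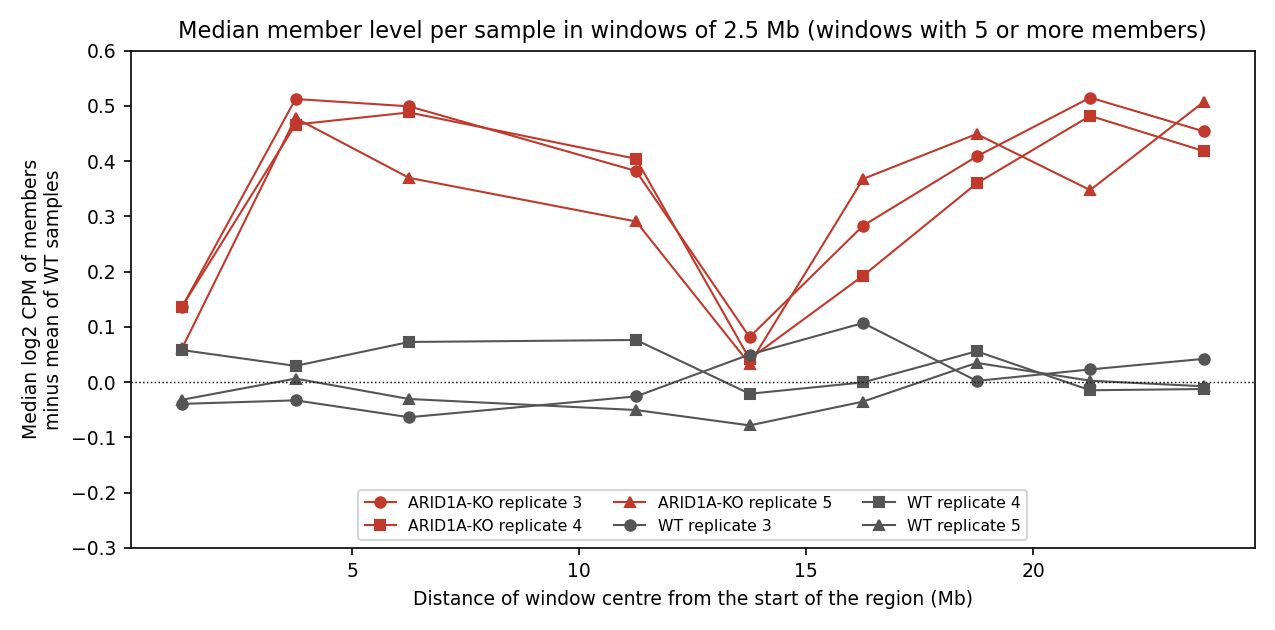
Median level of the members per sample in the 9 windows of 2.5 Mb with at least 5 members, as log2 CPM minus the mean of the WT samples (y axis) against the distance of the window centre from the start of the region in Mb (x axis). Grey lines are the 3 WT samples and red lines the 3 ARID1A-KO samples, which meet only in the window between 112.5 and 115 Mb.

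Stretches with unlike values can be marked off in this profile, with bounds set after the values were seen and therefore without a test. The 40 members from LOXL4 to LINC03046 (chr10:100007447-103468158, GRCh37) stood at a median of 0.18 in log2 fold change, and 11 of them were called higher and 2 lower. The 57 members from NPM3 to SHOC2 (chr10:103541082-112773425) had a median of 0.53, with 41 called higher and 3 lower. None of the 9 members from GPAM to PLEKHS1 (chr10:113909624-115543188) was called higher, 3 were called lower, and their median was -0.38. The 52 members from DCLRE1A to BUB3 (chr10:115594488-124924886) had a median of 0.45, with 37 called higher and 5 lower.

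The stretch with no member called higher holds genes of lipid metabolism, Wnt signaling and vesicle fusion. GPAM, the mitochondrial acyltransferase that begins glycerolipid synthesis, had 16.8, 16.8 and 15.2 CPM in WT and 18.8, 16.7 and 16.8 CPM in ARID1A-KO. TCF7L2, the Wnt-responsive transcription factor, had 17.7, 18.6 and 16.7 CPM in WT and 18.6, 18.5 and 18.1 CPM in ARID1A-KO. Both genes overlapped between genotypes, as did VTI1A, a SNARE of vesicle fusion, with a log2 fold change of -0.0010. ZDHHC6, a palmitoyltransferase of the endoplasmic reticulum, fell from 63.5, 60.2 and 59.6 CPM to 47.8, 46.0 and 47.0 CPM (log2 fold change -0.38, SE 0.06). ACSL5, an acyl-CoA synthetase, had 0.824, 1.0 and 1.05 CPM in WT and 0.646, 0.655 and 0.489 CPM in ARID1A-KO (log2 fold change -0.69, SE 0.21), and its call held in 1 of the 6 fits that left out 1 sample. On either side of this stretch, SHOC2, a scaffold of RAS signaling, had a log2 fold change of 0.58 and DCLRE1A, a nuclease of interstrand crosslink repair, of 0.58.

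The values on both sides of the region, which the choice of members did not use, were tested in the same fit. Between 90 and 100 Mb, 88 genes were tested, with a median log2 fold change of 0.25, 35 called higher (39.8%) and 6 lower (6.82%). Beyond 125 Mb, 59 genes were tested, with a median of -0.021, 11 called higher (18.6%) and 15 lower (25.4%). On chromosome 10 outside the region as a whole, 611 genes had a median of 0.16, with 30.6% called higher and 14.1% lower. The difference between the region and these flanks was not tested. Genes at the edges are named here only if they had at least 10 reads in every sample. The last of these before the region, R3HCC1L, was called higher (log2 fold change 0.64, adjusted p = 0.000167 by edgeR). The first of these beyond the region, OAT, ornithine aminotransferase, was called higher (log2 fold change 0.45, adjusted p = 0.000529 by edgeR). LHPP, between OAT and FAM53B, was not called (0.048), while FAM53B, EEF1AKMT2 and ABRAXAS2 were called higher, with log2 fold changes of 0.49, 0.50 and 0.55. ZRANB1 and CTBP2, which follow, were not called (0.033 and 0.080), and EDRF1 was called lower (-0.31). The bound of the region at 125 Mb therefore did not coincide with the last gene called higher. On the count minimum, the lowest members were ENSG00000236662, HPSE2 and RP11-31L23.3, with at least 13, 14 and 14 reads per sample, and the nearest genes left out were KCNIP2-AS1, ENO4 and GRK5-IT1, each with 7 reads in its lowest sample.

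Members that depart from the regional median are defined here by a log2 fold change at least 0.5 above or below 0.41, a description of the same contrast. The medians of the stretches above ran from -0.38 to 0.53, so a departure from 0.41 is not always a departure from nearby members. By this measure 45 members departed, 16 upward and 29 downward, and 113 stayed within 0.5 of the median, 81 of them within 0.25. The interquartile range of log2 fold changes was 0.54 over members and 0.53 over all genes tested. It was 0.48 over tested genes with the same minimum of 10 reads. A spread of this size was thus not particular to the region, and the share of all genes departing from their own median was not counted. All 16 that departed upward were called higher, with all ARID1A-KO samples above all WT samples. Departing upward means a log2 fold change of at least 0.91 on the contrast that gives the calls, so this count is no support for them. Of the 29 that departed downward, 13 were called lower and 16 were not called. The member just inside the upper limit was PDCD11 (0.43 above the median) and the first outside was GOT1-DT (0.51). On the lower side, SFXN2 lay 0.44 below the median (-0.44) and FGFR2 0.51 below it (-0.51). Departures were most frequent at low levels, with 28 of the 53 members in the lowest ranks by TPM, 9 of 52 in the middle and 8 of 53 in the highest.

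The promoters of the largest departures with a mean CPM over 1 and an entry in the RefSeq table (GRCh38.p14), 2 upward and 2 downward, are printed to show what lies at these start sites. Each runs 5′ to 3′ on the strand of its gene, from 250 bases before to 50 bases after the annotated start. Capitals mark a match, on either strand, to CCAAT or to the TATA box letters TATAAA. These promoters lie on chromosome 10 at chr10:102409228-102409527 (minus strand) for PSD, chr10:101131050-101131349 (plus strand) for TLX1, chr10:116274656-116274955 (minus strand) for GFRA1 and chr10:104232315-104232614 (minus strand) for CFAP43.
PSD: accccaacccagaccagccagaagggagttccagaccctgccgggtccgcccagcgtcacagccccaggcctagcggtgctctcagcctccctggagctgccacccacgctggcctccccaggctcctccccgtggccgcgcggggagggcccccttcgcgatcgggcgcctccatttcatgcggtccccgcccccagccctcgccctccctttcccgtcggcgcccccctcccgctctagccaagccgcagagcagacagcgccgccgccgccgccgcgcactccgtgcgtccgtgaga
TLX1: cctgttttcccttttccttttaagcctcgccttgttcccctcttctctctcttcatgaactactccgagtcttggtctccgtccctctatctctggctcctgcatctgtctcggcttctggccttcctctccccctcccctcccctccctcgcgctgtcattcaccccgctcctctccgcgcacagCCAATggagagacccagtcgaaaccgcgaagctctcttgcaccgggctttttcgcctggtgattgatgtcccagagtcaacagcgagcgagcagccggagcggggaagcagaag
GFRA1: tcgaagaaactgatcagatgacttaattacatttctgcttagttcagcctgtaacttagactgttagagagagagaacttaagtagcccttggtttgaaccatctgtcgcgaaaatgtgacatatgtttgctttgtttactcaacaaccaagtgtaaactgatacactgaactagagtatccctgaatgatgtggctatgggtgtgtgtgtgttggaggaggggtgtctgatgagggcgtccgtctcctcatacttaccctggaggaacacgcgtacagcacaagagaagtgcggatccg
CFAP43: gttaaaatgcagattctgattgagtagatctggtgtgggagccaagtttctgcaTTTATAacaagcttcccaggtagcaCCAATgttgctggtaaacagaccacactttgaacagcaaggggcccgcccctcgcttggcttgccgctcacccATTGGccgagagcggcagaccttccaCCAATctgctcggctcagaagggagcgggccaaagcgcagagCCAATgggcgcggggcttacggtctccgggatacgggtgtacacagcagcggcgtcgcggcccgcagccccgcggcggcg

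The PSD promoter held 31 CG dinucleotides and none of the motifs searched, and the TLX1 promoter held 18 CG dinucleotides and 1 CCAAT. The GFRA1 promoter held 9 CG dinucleotides and none of the motifs, and the CFAP43 promoter held 22 CG dinucleotides, 1 TATAAA and 4 CCAAT, which do not overlap. Of the 27305 promoters in the table, 35.7% held CCAAT at least once, 1.06% held it at least 4 times, and 12% held TATAAA. The AP-1 letters TGANTCA were in 7.76% and the E-box letters CACGTG in 7.43% of all promoters, and in none of these 4. Promoters were matched for 128 members, with a median of 24 CG dinucleotides against 14 over the table, and 36.7% held CCAAT, 7.81% TATAAA, 3.91% TGANTCA and 8.59% CACGTG. Among 13 members that departed upward 0 held TATAAA, and among 22 that departed downward 5 did, or 22.7%. CCAAT was in 7 of the 13 (53.8%) and in 8 of the 22 (36.4%). CACGTG was in 1 and 1 of them, and TGANTCA in 0 and 1. These matches describe the letters in a window and say nothing about binding.

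The largest upward departure was PSD, an exchange factor for the GTPase ARF6. It had 1.06, 1.21 and 0.859 CPM in WT and 3.51, 4.57 and 3.64 CPM in ARID1A-KO (log2 fold change 1.89, SE 0.18). TLX1, a homeobox factor needed to form the spleen, rose from 1.5, 1.38 and 1.44 CPM to 4.23, 4.62 and 5.14 CPM (log2 fold change 1.69, SE 0.14). Both genes stood low in WT, at 0.543 and 1.07 TPM, and every knockout sample lay well above every WT sample. HMX2, a homeobox factor of inner ear and hypothalamus, stood at 3.31, 3.00 and 3.88 CPM in WT and 7.31, 8.53 and 10.9 CPM in ARID1A-KO (log2 fold change 1.39, SE 0.17). MFSD13A, a member of the major facilitator family of transporters, rose from 2.41, 2.78 and 2.51 CPM to 7.77, 6.81 and 7.39 CPM (log2 fold change 1.51, SE 0.12). SLC18A2, the vesicular monoamine transporter, had 3.27, 2.48 and 3.44 CPM in WT and 6.84, 6.33 and 8.48 CPM in ARID1A-KO (log2 fold change 1.24, SE 0.17). The WT and knockout samples of these genes did not overlap.

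Higher-expressed genes, DUSP5, ITPRIP and NFKB2, were also among the upward departures, as were CNNM2 and FBXL15 at lower levels. DUSP5, a nuclear phosphatase that inactivates ERK, rose from 14.2, 15.2 and 14.0 CPM to 45.9, 44.1 and 32.8 CPM (log2 fold change 1.5, SE 0.12). ITPRIP, which binds the inositol trisphosphate receptor, rose from 24.7, 37.5 and 28.2 CPM to 78, 83.5 and 58.7 CPM (log2 fold change 1.28, SE 0.17). NFKB2, the precursor p100 of the noncanonical NF-kB subunit p52, rose from 47.3, 52.4 and 63.4 CPM to 97.5, 106 and 133 CPM (log2 fold change 1.05, SE 0.13). In DUSP5 and ITPRIP the knockout replicate 5 was the lowest of the 3 knockout samples, and in NFKB2 it was the highest. CNNM2, a membrane protein of magnesium balance, rose from 11, 12.6 and 12.2 CPM to 27.1, 28.9 and 27.3 CPM (log2 fold change 1.22, SE 0.08). FBXL15, a substrate receptor of an SCF ubiquitin ligase, rose from 3.46, 4.23 and 4.04 CPM to 7.52, 10.4 and 12.6 CPM (log2 fold change 1.38, SE 0.18).

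The largest downward departures were GFRA1 and CFAP43, both of which were several-fold lower in the knockout. GFRA1, the co-receptor with RET for glial cell line-derived neurotrophic factor, fell from 2.23, 4.54 and 4.24 CPM to 0.206, 0.255 and 0.273 CPM, 15-fold lower by the group means (log2 fold change -3.89, SE 0.32). CFAP43, a protein of the axoneme of motile cilia and sperm flagella, fell from 8.18, 6.87 and 5.91 CPM to 1.09, 0.637 and 1.09 CPM, 7.45-fold lower (log2 fold change -2.88, SE 0.22). The WT samples of GFRA1 were spread over a wide range, yet all lay far above the knockout samples. CFAP58, also a protein of motile cilia and flagella, had 103, 120 and 121 CPM in WT and 55.8, 52.9 and 60.1 CPM in ARID1A-KO (log2 fold change -1.03, SE 0.08). CFAP58 was at 106 TPM ± 8.44 in WT and CFAP43 at 3.20 TPM ± 0.557 (SD, n = 3), so these fell from very unlike levels.

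The other named members that departed downward had smaller differences than GFRA1 and CFAP43. AFAP1L2, an actin-associated adaptor of SRC signaling, fell from 2.23, 1.89 and 2.11 CPM to 0.529, 0.764 and 0.932 CPM (log2 fold change -1.47, SE 0.22). COL17A1, the transmembrane collagen of hemidesmosomes, fell from 21.7, 25.7 and 25.4 CPM to 12.5, 12.7 and 12.3 CPM (log2 fold change -0.96, SE 0.09). SEC31B, a paralog of the outer COPII coat subunit SEC31A, fell from 8.20, 10.1 and 9.21 CPM to 4.64, 4.46 and 5.27 CPM (log2 fold change -0.93, SE 0.12). In each of these 3 genes the lowest WT sample lay clearly above the highest knockout sample. SEC31B overlaps NDUFB8 on the same strand, so reads in the overlap cannot be assigned with certainty. DMBT1, a secreted scavenger receptor protein of mucosal surfaces, fell from 2.73, 3.32 and 3.01 CPM to 1.56, 2.0 and 1.61 CPM (log2 fold change -0.81, SE 0.16). PLPP4, a phospholipid phosphatase, fell from 6.56, 6.18 and 6.29 CPM to 4.2, 4.33 and 4.02 CPM (log2 fold change -0.60, SE 0.11). NANOS1, a translational repressor of the germ line, had 3.16, 1.48 and 1.91 CPM in WT and 0.925, 1.11 and 1.42 CPM in ARID1A-KO (log2 fold change -0.91, SE 0.29), with its genotypes almost touching. It was not called in 4 of the 6 fits that left out 1 sample, with log2 fold changes from -0.55 without WT replicate 3 to -1.0 without WT replicate 5. The noncoding gene ENSG00000260917 fell from 3.37, 2.87 and 2.80 CPM to 1.82, 2.06 and 1.83 CPM (log2 fold change -0.67). It lies in the stretch from GPAM to PLEKHS1, whose median log2 fold change was -0.38. PNLIPRP3, of the pancreatic lipase family, overlapped between genotypes at 2.07, 6.0 and 3.83 CPM in WT and 2.06, 2.27 and 3.41 CPM in ARID1A-KO, and was not called, except without WT replicate 3 (log2 fold change -0.93).

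**Figure D3:**
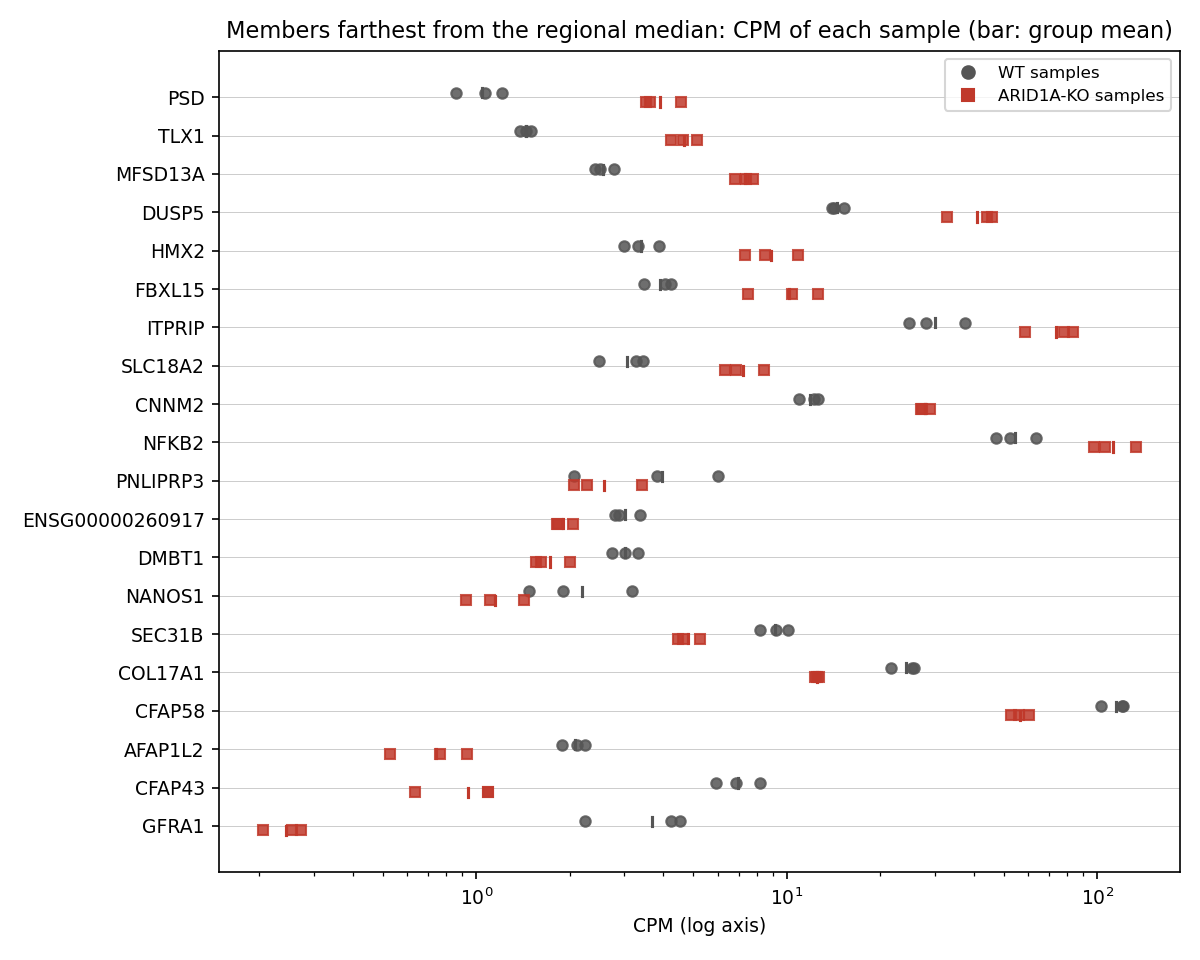
CPM (x axis, log scale) of each sample for the 20 members farthest from the regional median among those with a mean CPM over 1 (y axis, 10 upward at the top and 10 downward below). Grey circles are the 3 WT samples, red squares the 3 ARID1A-KO samples and short bars the group means; PNLIPRP3 is the gene here whose genotypes overlap.

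Members with large departures stood next to each other in some places and next to members of the opposite direction in others. Across the 157 pairs of neighboring members, Spearman's rho between log2 fold changes was 0.36, and the median difference between neighbors was 0.37 (these genes share the same libraries). The genes NFKB2, PSD, FBXL15 and MFSD13A, all departing upward, lie within chr10:104153867-104236802 (GRCh37), together with CUEDC2 and C10orf95-AS1, which had log2 fold changes of 0.43 and 0.65. PSD and FBXL15 overlap on opposite strands, which the stranded counts separate. A stretch of mixed direction runs from COL17A1 to CFAP58 (chr10:105791044-106214848). There COL17A1, CFAP43 and CFAP58 fell, while SFR1, GSTO1, GSTO2, ITPRIP and CFAP58-DT, which lie among them, were called higher with log2 fold changes of 0.53, 0.74, 0.94, 1.28 and 1.09. GSTO1, a glutathione transferase of the omega class, had 52.3, 70.9 and 60.2 CPM in WT and 111, 107 and 88.7 CPM in ARID1A-KO. Its start lies 2994 bases from the start of CFAP43, which is on the opposite strand and was called lower.

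**Figure D4:**
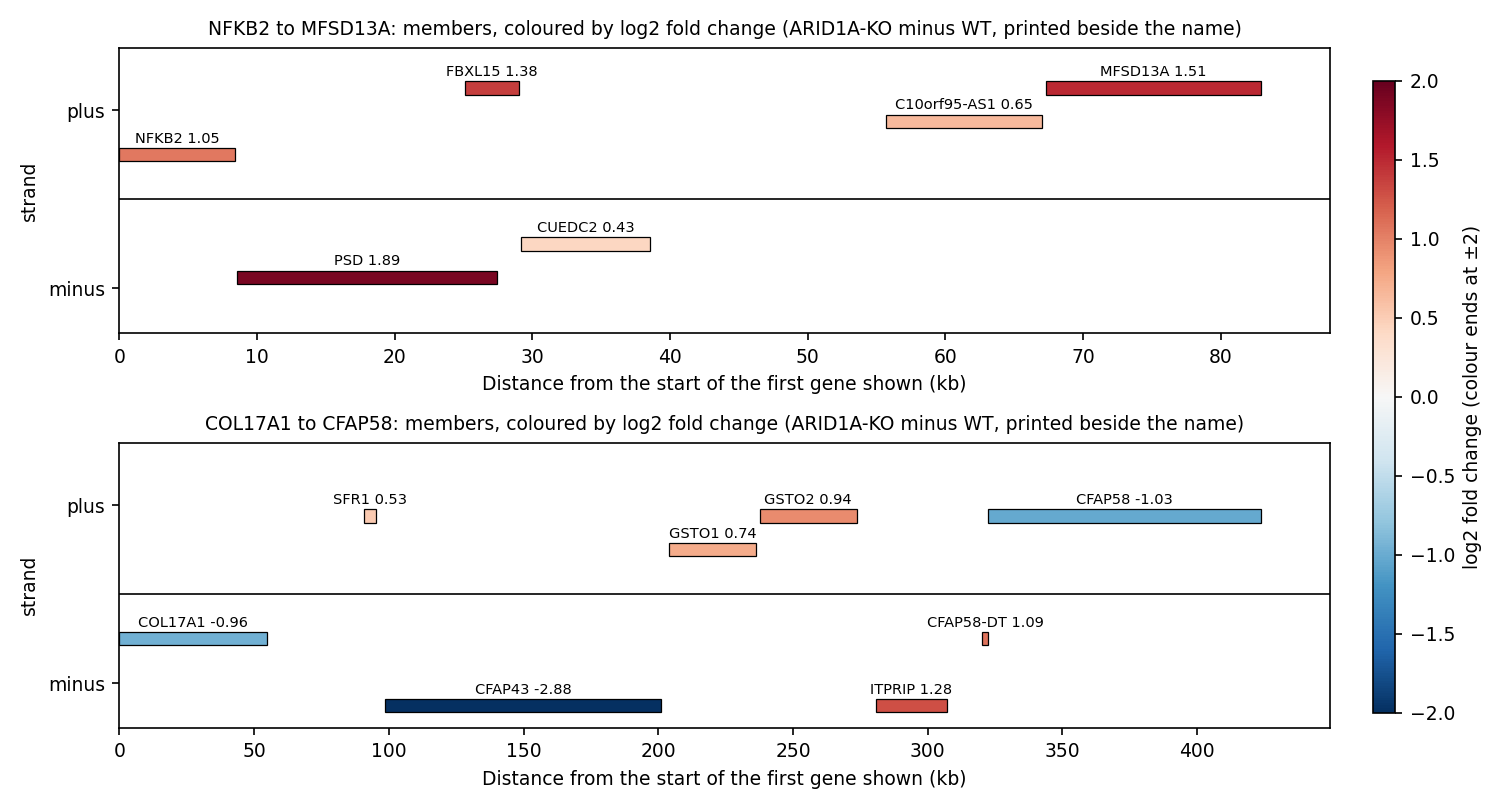
Members from NFKB2 to MFSD13A (top) and from COL17A1 to CFAP58 (bottom), drawn to scale against the distance from the start of the first gene in kb (x axis), with genes of the plus strand above the line and of the minus strand below it (height within a strand has no meaning). Color and the number beside each name give the log2 fold change, ARID1A-KO minus WT, with red higher and blue lower; the upper map is all red, and the lower holds both colors.

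There were 20 pairs that start back to back within 1000 bases, with a median difference in log2 fold change of 0.29, against 0.37 over the 157 pairs of neighboring members. Of the 20 pairs, 16 differed by less than 0.5, and no likeness particular to such pairs was tested. DCLRE1A and NHLRC2 start 278 bases apart and had log2 fold changes of 0.58 and 0.61, and MRPL43 and TWNK, 148 bases apart, had 0.13 and 0.18. The widest difference was in CFAP58 and its divergent transcript CFAP58-DT, whose starts are 189 bases apart. CFAP58-DT had 0.480, 0.507 and 0.447 CPM in WT and 0.896, 1.46 and 0.761 CPM in ARID1A-KO, whereas CFAP58 fell, with log2 fold changes of 1.09 and -1.03. SEC31B and HIF1AN, 799 bases apart, had -0.93 and 0.16.

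By role, the members were grouped into 10 lists by position in the region and textbook function, with earlier results of these data known. Each list is described by its counts. For comparison, 56.3% of all 158 members were called higher and 8.23% lower, against 17.8% and 18.4% of all genes tested. The region was chosen for this contrast, and no difference between a list and the regional share was tested. In the NF-kB, hypoxia, Hedgehog and ubiquitin ligase list, 8 of 12 members were called higher and 0 lower, with a median log2 fold change of 0.47. NFKB2 (above) had the highest fold change of the NF-kB genes, while CHUK, the kinase IKK-alpha that phosphorylates p100, overlapped between genotypes at 66.8, 56.7 and 59.1 CPM in WT and 64.3, 66.2 and 71.4 CPM in ARID1A-KO. BTRC, the F-box protein that recognizes phosphorylated IkB and p100, had 40.4, 40.5 and 39.7 CPM in WT and 39.3, 37.8 and 34.2 CPM in ARID1A-KO, and was not called. The NF-kB subunit itself thus stood apart from its kinase and its ubiquitin ligase in these values. CUEDC2, a ubiquitin-binding protein, and TRIM8, a RING ubiquitin ligase, were called higher, with log2 fold changes of 0.43 and 0.51. SUFU, the inhibitor of GLI factors in Hedgehog signaling, was called higher at 0.42, and HIF1AN, the asparaginyl hydroxylase of HIF1A, was not called at 0.16.

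The homeobox and other transcription factors had the highest median of the lists. Of 10 members, 8 were called higher and 0 lower, with a median log2 fold change of 0.62, and 5 more listed genes did not reach the count minimum. Besides TLX1 and HMX2, EMX2, a homeobox factor of forebrain and urogenital development, was called higher at 3.63, 3.32 and 3.20 CPM in WT and 5.42, 5.02 and 5.42 CPM in ARID1A-KO. PAX2, a factor of kidney development, overlapped between genotypes at 1.84, 1.62 and 2.06 CPM in WT and 1.98, 2.02 and 3.31 CPM in ARID1A-KO. Of the most abundant factors by TPM, PPRC1, a coactivator of mitochondrial genes, and LDB1, an adaptor of LIM-domain factors, both had log2 fold changes of 0.64. MXI1, an antagonist of MYC, had 27.8, 25.8 and 23.9 CPM in WT and 33.6, 32.8 and 31.6 CPM in ARID1A-KO (log2 fold change 0.34, SE 0.08).

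Genome maintenance and chromosome segregation genes were all within 0.5 of the regional median. Of 9 members, 7 were called higher and 0 lower, with a median log2 fold change of 0.45. SMC3, a core subunit of cohesin, rose from 127, 113 and 98.2 CPM to 185, 166 and 186 CPM (log2 fold change 0.67, SE 0.09). DCLRE1A rose from 46.6, 41.9 and 40.9 CPM to 66.6, 62.9 and 63.2 CPM, and BUB3 is given above. STN1, of the CST complex at telomeres, was called higher at 0.45, SFR1, a cofactor of homologous recombination, at 0.53, MCMBP, which binds the MCM helicase, at 0.38, and NSMCE4A, of the SMC5-SMC6 complex, at 0.33. POLL, DNA polymerase lambda, had 25.1, 32.1 and 27.9 CPM in WT and 32.6, 36.4 and 31.4 CPM in ARID1A-KO. SLF2, which loads the SMC5-SMC6 complex, had 67.4, 63.7 and 54.9 CPM in WT and 69.0, 68.3 and 72.2 CPM in ARID1A-KO. POLL and SLF2 were not called, at 0.24 and 0.17.

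RNA processing and translation genes were called higher in 9 of 12 members and lower in 1, NANOS1, with a median log2 fold change of 0.53. The ribosome biogenesis genes among them were NPM3, NOLC1 and PDCD11, with log2 fold changes of 0.93, 0.53 and 0.83. PDCD11, a factor of ribosomal RNA processing, stood at 119, 154 and 135 CPM in WT and 262, 264 and 202 CPM in ARID1A-KO. PDCD4, an inhibitor of translation initiation, was called higher at 0.52, and PSTK, a kinase of selenocysteine synthesis, at 0.77. CWF19L1, related to a yeast splicing factor, overlapped between genotypes at a log2 fold change of 0.00058.

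The list of mitochondrial genes had a median of 0.23 over 12 members, with 5 called higher, 0 lower and 0 departing from the regional median. These counts hold for the list as drawn up. PYROXD2, an oxidoreductase also placed in mitochondria, is not on it and was called lower (log2 fold change -0.61). GPAM, placed in the lipid list, is not on it either and was not called (0.099). GOT1, a cytosolic enzyme, is on it and is among those called higher. GOT1, the cytosolic aspartate aminotransferase of the malate-aspartate shuttle, rose from 77.1, 85.9 and 79.3 CPM to 139, 132 and 109 CPM (log2 fold change 0.65, SE 0.09). PRDX3, the mitochondrial peroxiredoxin, stood at 164, 153 and 166 CPM in WT and 198, 187 and 195 CPM in ARID1A-KO (log2 fold change 0.26, SE 0.06). Both sat above WT in every sample, but by unequal amounts. The sideroflexins, a family of mitochondrial carriers, were unlike one another: SFXN4 had a log2 fold change of 0.74, SFXN3 of 0.21 and SFXN2 of -0.033, and of the 3 SFXN4 was called higher. COX15, of heme A synthesis, overlapped between genotypes at 53.6, 57.1 and 50.9 CPM in WT and 53.9, 53.5 and 51.9 CPM in ARID1A-KO.

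Lipid and metabolite enzymes had 11 members of 15 listed genes, a median log2 fold change of 0.25, and 5 called higher and 2 lower (ACSL5 and PLPP4). SCD, the stearoyl-CoA desaturase, overlapped between genotypes at 169, 148 and 213 CPM in WT and 203, 205 and 223 CPM in ARID1A-KO. ERLIN1, a membrane scaffold of the endoplasmic reticulum, had 154, 155 and 153 CPM in WT and 168, 163 and 152 CPM in ARID1A-KO. OGA, which removes O-linked N-acetylglucosamine from proteins, was called higher at 114, 129 and 109 CPM in WT and 177, 179 and 163 CPM in ARID1A-KO (log2 fold change 0.56, SE 0.08). SCD and ERLIN1 were not called.

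Membrane traffic genes were called higher in 11 of 15 members and lower in 2, SEC31B and ZDHHC6, with a median log2 fold change of 0.41. GBF1, an exchange factor for ARF1 at the Golgi, had a log2 fold change of 0.67, and SEC23IP, at sites of export from the endoplasmic reticulum, of 0.63. ACTR1A, the actin-related protein of dynactin, stood at 106, 105 and 119 CPM in WT and 155, 155 and 153 CPM in ARID1A-KO. The BLOC-1 subunit BLOC1S2 had 53.1, 59.4 and 52.2 CPM in WT and 50.7, 49.7 and 50.5 CPM in ARID1A-KO, without overlap and without a call.

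Cytoskeleton and adhesion genes had the lowest median, 0.22 over 13 members, with 4 called higher and 2 lower. The called lower members were COL17A1 and AFAP1L2. SHTN1, a protein of neuronal polarity, was called higher at 42.4, 32.4 and 38.6 CPM in WT and 48.4, 47.1 and 56.0 CPM in ARID1A-KO (log2 fold change 0.42, SE 0.11). ABLIM1, an actin-binding LIM protein, overlapped between genotypes at 139, 83.7 and 123 CPM in WT and 111, 114 and 137 CPM in ARID1A-KO. DNMBP, a scaffold and CDC42 exchange factor, also overlapped, with a log2 fold change of 0.22.

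Growth factor, receptor and signaling genes held the extremes of the region, from GFRA1 at -3.89 to PSD at 1.89. Of 13 members, 8 were called higher and 1 lower, with a median log2 fold change of 0.41. FGFR2, a receptor tyrosine kinase, overlapped between genotypes at 8.17, 8.31 and 8.06 CPM in WT and 7.45, 8.53 and 6.96 CPM in ARID1A-KO. GRK5, a kinase of G protein-coupled receptors, was called higher at 7.40, 6.96 and 7.92 CPM in WT and 11.7, 11.8 and 12.2 CPM in ARID1A-KO, and RGS10, a regulator of G protein signaling, was not called at a log2 fold change of 0.11. In the apoptosis, chaperone and transport list, 6 of 9 members were called higher and 0 lower, with a median of 0.47. BAG3, a co-chaperone of HSP70, stood at 45.2, 53.2 and 57.0 CPM in WT and 72.6, 78.2 and 64.6 CPM in ARID1A-KO (log2 fold change 0.47, SE 0.10). CUTC, of copper homeostasis, overlapped between genotypes at a log2 fold change of 0.18.

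**Figure D5:**
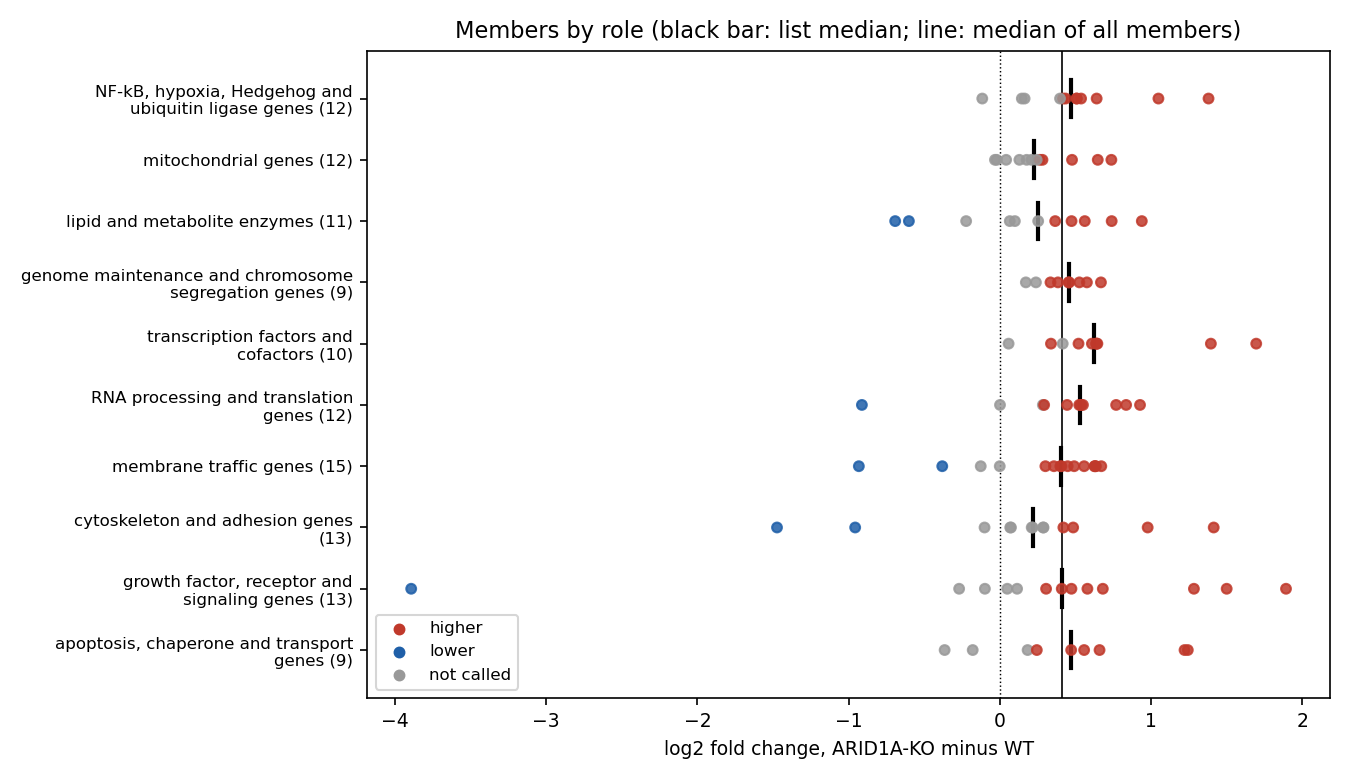
Log2 fold change (x axis, ARID1A-KO minus WT) of the members of the 10 lists of roles (y axis, number of members in brackets). Points are genes, red if called higher, blue if called lower and grey if not called; black bars are list medians, from 0.22 for cytoskeleton and adhesion to 0.62 for transcription factors, and the long line is the median of all members, 0.41.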

How the data were processed

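RNA-seq of 3 WT and 3 ARID1A-KO AID-DIvA samples was analysed. Genotypes and replicate numbers came from the sample labels. Libraries were made from total RNA with a stranded kit, whereas the labels name the molecule as polyA RNA, and were sequenced as paired reads of 100 bases. Reads had been aligned by the authors to GRCh37 with STAR (Roddy workflow) and counted per gene with featureCounts. The deposited counts are whole numbers and not normalized. The deposited TPM values, which sum to the same total in every sample, served to compare levels between genes. Tool versions are not given in the sources used here.

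Reverse-stranded counts of the 6 samples passed filterByExpr, were scaled by TMM and were compared with edgeR's quasi-likelihood test (edgeR 4.0.16, R 4.3.3), with no covariate. P-values were adjusted by Benjamini-Hochberg over 19599 genes, and calls used an adjusted p under 0.05. CPM are TMM-adjusted. Sample medians used log2(CPM + 0.1). SE is the absolute log2 fold change divided by the square root of F. The common biological coefficient of variation was 0.111. Depth was 54512105 to 84088708 counts per sample. The samples of a genotype differed by more than sampling noise (chi-square per gene 7.20 to 33.9). The fit was tested on simulated data.

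Members were taken by position and by at least 10 counts in every sample. The members and the lists were chosen with earlier results of these data known. Of 158 members, 155 matched a current symbol. 46 members overlap another gene on the same strand, so reads in the overlap are uncertain. Named members were the 10 largest departures each way with a mean CPM over 1, the 3 highest by TPM of each list, the 5 highest by TPM of all, the 3 nearest the median, all genome maintenance genes, and the 5 highest by CPM of those called lower. 1 member that this rule names is not reported here. Other members named were chosen after their values were seen. Promoters came from the RefSeq table (GRCh38.p14). Alternatives were unstranded counts, RLE scaling, DESeq2 1.42.0, other filters, an adjusted p under 0.01, TPM ratios, a local median, the replicate number as a block and each sample left out. Summaries were made with Python 3.11.15 and pandas 2.3.3.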

Additional observations from a re-analysis of the deposited data

Results flagged for a closer look

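Forward-strand counts, which the comparisons do not use, were above the WT level in the knockout for 3 members with no annotated gene on the opposite strand. Of the 22 members with at least 30 forward-strand counts in every sample, 5 had no such gene. Of these 5, 3 had all ARID1A-KO samples above all WT samples. On the reverse strand 60.1% of the 158 members and 24.8% of all genes tested did so. The 3 of 5 is thus near the share in the chosen region, and nothing further is read from it. Of the other two, NANOS1 had all ARID1A-KO samples below all WT samples (mean 1.31 CPM in WT and 0.709 CPM in ARID1A-KO), and ERLIN1 overlapped between genotypes (1.04 and 0.947 CPM). DUSP5 had 1.68 CPM ± 0.553 on the forward strand in WT and 5.41 CPM ± 0.345 in ARID1A-KO (SD, n = 3). These were 9.48% to 16.4% of its reverse-strand counts in WT and 11.5% to 16.9% in ARID1A-KO, so the share overlapped between genotypes. KAZALD1 had 0.612 CPM ± 0.0878 and 1.14 CPM ± 0.130, and EIF3A 1.86 CPM ± 0.139 and 2.73 CPM ± 0.572 (SD, n = 3). Their shares of the reverse-strand counts also overlapped between genotypes, at 10.7% to 11.2% in WT and 8.18% to 11.8% in ARID1A-KO for KAZALD1, and at 0.440% to 0.489% and 0.398% to 0.546% for EIF3A.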

How the results depend on the processing

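Members called numbered 102 in the fit reported, 92 to 102 when 1 sample was left out and 86 to 107 under the other settings. Of the 102, 90 were called in all 6 fits that left out a sample. The median log2 fold change of 0.41 moved to 0.43 without ARID1A-KO replicate 4 (range over left-out samples 0.39 to 0.43), to 0.35 as a ratio of TPM with 1 added, and to 0.46 over members from NPM3 onward, a setting chosen after seeing the data. Departing members numbered 40 to 45 with a sample left out and 31 to 45 otherwise. The 31 is the count from NPM3 onward, a smaller set without the 40 members from LOXL4 to LINC03046, so it is not a like count. The log2 fold change of TLX1 was 1.53 and of SLC18A2 0.82 with unstranded counts. No named gene changed direction past a call. NANOS1 was not called without ARID1A-KO replicate 3 (-0.77) or 4 (-0.88) or WT replicate 3 (-0.55) or 5 (-1.0). Calls were gained by PNLIPRP3 without WT replicate 3 (-0.93), by POLL (0.33), DNMBP (0.32) and CUTC (0.34) without WT replicate 4, by DNMBP without ARID1A-KO replicate 5 (0.30), and by SCD (0.41) without WT replicate 5. Called flanking genes numbered 67, 58 to 64 with a sample left out and 46 to 75 otherwise. Correlations of same-numbered samples were -0.19, 0.31 and 0.21, and those of unlike-numbered samples lay between -0.45 and 0.32. These values do not settle whether the replicate numbers pair the samples. With the replicate block 104 members were called, 91 higher and 13 lower. Over all genes tested the block gave 3708 called higher and 3769 lower, against 3483 and 3616 without it. Other scalings moved the median of all genes by less than 0.01. Wide errors were found near the minimum of 10 counts, as in ENSG00000203434 (SE 0.43, at least 19 reads per sample). They were also found at higher counts, as in PNLIPRP3 (SE 0.35, at least 125 reads per sample). The causes of these shifts were not tested.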

Other observations

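Several members outside the rule for named genes also departed from the regional median, and they are given here after their values were seen. KAZALD1, a secreted protein related to insulin-like growth factor binding proteins, stood at 6.31, 4.65 and 6.03 CPM in WT and 8.89, 10.2 and 14.3 CPM in ARID1A-KO (log2 fold change 0.98, SE 0.19). GSTO2, the paralog next to GSTO1, stood at 10.3, 11.6 and 11 CPM in WT and 20.9, 21.5 and 20.6 CPM in ARID1A-KO (log2 fold change 0.94, SE 0.08). The genotypes did not overlap in either gene. PYROXD2, a mitochondrial oxidoreductase, had 3.31, 3.24 and 3.69 CPM in WT and 2.10, 2.37 and 2.25 CPM in ARID1A-KO, although it lies beside HPS1, which was called higher at a log2 fold change of 0.52.

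The noncoding gene DUSP5-DT starts 1634 bases from the start of DUSP5, on the opposite strand, and is transcribed away from it. It had 1.29, 1.56 and 1.41 CPM in WT and 0.969, 1.13 and 1.10 CPM in ARID1A-KO (log2 fold change -0.41, SE 0.17, not called), where DUSP5 was called higher at 1.5. The region held 15 more genes that were tested but did not reach the count minimum in every sample. Of these, 4 were called higher (26.7%) and 3 lower (20%), against 17.8% and 18.4% of all genes tested. Their median log2 fold change was 0.078.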
